A study of Mus musculus with 6 samples.

Results

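The 3 sestrins and 7 further regulators of mTORC1 were followed in liver natural killer (NK) cells of metformin-treated and PBS-treated mice. The 10 genes, Sesn1, Sesn2, Sesn3, Ddit4, Tsc1, Tsc2, Rptor, Mtor, Rheb and Ulk1, were taken by symbol from a deposited table of 55414 genes, and each was found in it. The mice were wild type (WT). One group received metformin at 200 mg per kg for 3 days, and the other group received PBS. NK cells from the liver were profiled by RNA sequencing on day 3, in 3 libraries per group. The sources used here give neither the isolation gate, nor the sex and age of the mice, nor whether each library came from its own mouse, so the p-values below rest on library-to-library spread that may be technical.

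mTORC1 is a protein kinase complex that promotes protein, lipid and nucleotide synthesis and restrains autophagy. Its catalytic subunit is MTOR and its scaffold, which recruits substrates, is RAPTOR (Rptor). The small GTPase RHEB activates the complex at the lysosome, and the complex of TSC1 and TSC2 inactivates RHEB by stimulating its GTPase activity. Sestrins are stress-induced proteins that bind the GATOR2 complex and thereby reduce the amino acid signal to mTORC1; SESN1 and SESN2 release GATOR2 when leucine is present. REDD1, the product of Ddit4, is induced by hypoxia, glucocorticoids and energy stress and inhibits mTORC1 through the TSC complex. ULK1, the kinase that starts autophagy, is inhibited by mTORC1 and activated by AMPK, the energy-sensing kinase that metformin is known to activate in hepatocytes. AMPK also phosphorylates TSC2 and RAPTOR. In NK cells, mTORC1 is known for its part in the growth and effector function that follow cytokine stimulation. The measurements are mRNA levels and do not report phosphorylation or the activity of any of these proteins.

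The starts of Sesn2, Sesn3, Sesn1 and Ddit4 are shown because these 4 genes are the stress-induced inhibitors of the set, and because Sesn2 and Ddit4 were the only 2 of the 10 genes whose metformin and PBS libraries did not overlap in CPM (counts scaled to the library total). All 10 genes had a promoter entry in RefSeq (build GRCm38.p6). Each line gives the 250 bases before the gene's start, 5′ to 3′ on the gene's strand, with the letters CCAAT, or ATTGG on the other strand, in capitals.
Sesn2, chr4:132510457-132510706, minus strand: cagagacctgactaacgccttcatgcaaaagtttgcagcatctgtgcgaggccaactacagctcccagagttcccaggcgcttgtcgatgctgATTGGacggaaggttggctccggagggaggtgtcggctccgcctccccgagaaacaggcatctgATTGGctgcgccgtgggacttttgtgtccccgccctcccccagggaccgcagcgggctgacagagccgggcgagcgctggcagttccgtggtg
Sesn3, chr9:14276051-14276300, plus strand: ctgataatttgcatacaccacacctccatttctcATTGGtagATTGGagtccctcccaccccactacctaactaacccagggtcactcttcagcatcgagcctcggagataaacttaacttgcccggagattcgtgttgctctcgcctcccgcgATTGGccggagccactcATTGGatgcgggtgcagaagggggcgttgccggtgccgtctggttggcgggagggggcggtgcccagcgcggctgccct
Sesn1, chr10:41810324-41810573, plus strand, the upstream of 2 RefSeq starts: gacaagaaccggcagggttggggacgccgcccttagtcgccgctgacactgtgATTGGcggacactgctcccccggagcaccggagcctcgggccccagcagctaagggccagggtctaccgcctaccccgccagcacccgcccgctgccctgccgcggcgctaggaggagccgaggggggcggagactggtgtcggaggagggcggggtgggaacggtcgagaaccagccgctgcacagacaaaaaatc
Ddit4, chr10:59951771-59952020, minus strand: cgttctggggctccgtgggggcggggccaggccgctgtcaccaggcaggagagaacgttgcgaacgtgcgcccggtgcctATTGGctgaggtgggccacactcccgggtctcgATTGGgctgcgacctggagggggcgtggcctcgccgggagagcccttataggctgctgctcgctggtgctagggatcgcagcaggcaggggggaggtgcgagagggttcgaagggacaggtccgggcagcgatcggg

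CCAAT lay in all 4 windows, against 33.8% of 32851 RefSeq windows of the same length. Of the regulators not shown, Mtor also held it, 4 times, and Tsc1, Tsc2, Rptor, Rheb and Ulk1 did not. It occurred 2 times in Sesn2, at 157 and 93 bases before the start, 4 times in Sesn3, 1 time in Sesn1 and 2 times in Ddit4. Ddit4 also held ACGTG, the core of the hypoxia response element, at 187 bases before the start; 16.6% of all windows hold it on one strand or the other. The windows of the sestrins did not hold these letters, and those of Rptor and Rheb did. The cyclic AMP response element TGACGTCA (1.55% of all windows), the motif TGATGNAA, part of the amino acid response element bound by ATF4 (3.45%) and the FOXO motif GTAAACA (3.17%) were also searched on both strands and were in none of the 4 windows. The same held for AGAACA, a glucocorticoid response element half-site (16.1%), and for the E-box CACGTG (6.02%), which Rheb held. CCAAT was thus only one of the motifs searched, and the 4 windows were chosen partly by expression values. The GC box GGGCGG, in 32.7% of all windows, was in each of the 4, and also in those of Mtor, Rheb and Ulk1. These matches describe the letters of the windows and do not show that a factor bound there.

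Levels are given as CPM, scaled between libraries by the trimmed mean of M values, and as TPM, which is per transcript length. The libraries held 22983788, 24266803 and 22152167 estimated counts in the metformin group and 27263681, 24838302 and 30161214 in the PBS group, and the 10 genes had 474 to 5651 estimated counts in each library. Every metformin library thus held fewer counts than any PBS library (exact permutation p = 0.1). The part of depth in the results was not tested. The 12 NK cell markers were detected in every library, with Ncr1, an activating NK receptor, at 1314 to 1591 CPM and Klrb1c (NK1.1) at 1720 to 2268 CPM. Of that list, Eomes, a transcription factor that distinguishes NK cells from ILC1, had 216, 212 and 208 CPM with metformin. It had 311, 342 and 329 CPM with PBS, and Prf1 (perforin) was also lower in every metformin library. Klrb1c, Gzmb, Tyrobp, Nkg7 and Cd244a were higher in every metformin library, and the other markers of the list overlapped. The sum of the 12 overlapped between the groups (exact permutation p = 0.2). Transcripts on the marker lists of other cells were present as well. Whether they came from such cells or from the NK cells was not tested. The summed level of 10 restricted T cell markers was 807 to 983 CPM in the metformin libraries and 497 to 603 CPM in the PBS libraries, and that of 10 liver ILC1 markers was 1878 to 2251 CPM in the metformin libraries and 1307 to 1422 CPM in the PBS libraries (exact permutation p = 0.1 for each of these 2 of the 15 lists compared, the smallest that 3 against 3 libraries can give). Trbc1 and Trbc2, the T cell receptor beta constant genes, made up most of the T cell sum. Together they had 603 to 789 CPM in the metformin libraries and 453 to 487 CPM in the PBS libraries. The other 8 T cell markers, split off after their values were seen, summed to 302, 204 and 110.1 CPM with metformin. With PBS they summed to 43.9, 95.7 and 128 CPM, and the groups overlapped. Of these 8, Cd3d, Cd3e and Cd8a were higher in every metformin library than in any PBS library, and the rest overlapped. The summed level of 7 monocyte markers was 1401 to 1532 CPM in the metformin libraries and 1694 to 1798 CPM in the PBS libraries (exact p = 0.1). Metformin library 3 stood apart: its 14 hepatocyte markers summed to 412 CPM, against 126 and 110.3 CPM in the other metformin libraries and 105 to 223 CPM in the PBS libraries, its mitochondrial share was 0.720% against 0.429% to 0.515% elsewhere, and its counts of long genes were low. No marker list had a member at 0 in all libraries. The part of these transcripts' sources and of this library in the results below was not tested except where values without the library are given. In RNA from pooled cells, fewer cells that express a gene and less RNA per cell cannot be told apart.

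No difference in the mRNA of these regulators was called between metformin-treated and PBS-treated NK cells. None of the 10 passed a Benjamini-Hochberg adjusted p of 0.05 in edgeR's quasi-likelihood test, where 0.0% of the 15527 genes tested passed; DESeq2 called 2.05% of the genes to which it gave an adjusted p and limma-voom with sample quality weights 0.232%, and neither called one of the 10. All 10 had passed the low-count filter. Sesn2 was the only gene of the 10 with an unadjusted p under 0.05, and it was lower in metformin-treated cells; of all genes tested 10.4% were under that p, 5.08% lower and 5.29% higher (7.09% by DESeq2, 10.8% by limma-voom and 13.3% with quality weights). In CPM, the groups did not overlap for Sesn2, lower with metformin, and for Ddit4, higher with metformin, and they overlapped for the other 8. Among all genes, 19.1% did not overlap, 9.63% with metformin lower and 9.49% with metformin higher. The count among the regulators was therefore near the background. The log2 fold change of metformin over PBS was below 0 for 7 and above 0 for 3 of the 10, with a median of −0.11 against 0.0053 over all genes. Without metformin library 3 the median of the 10 was −0.0036.

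**Figure D1:**
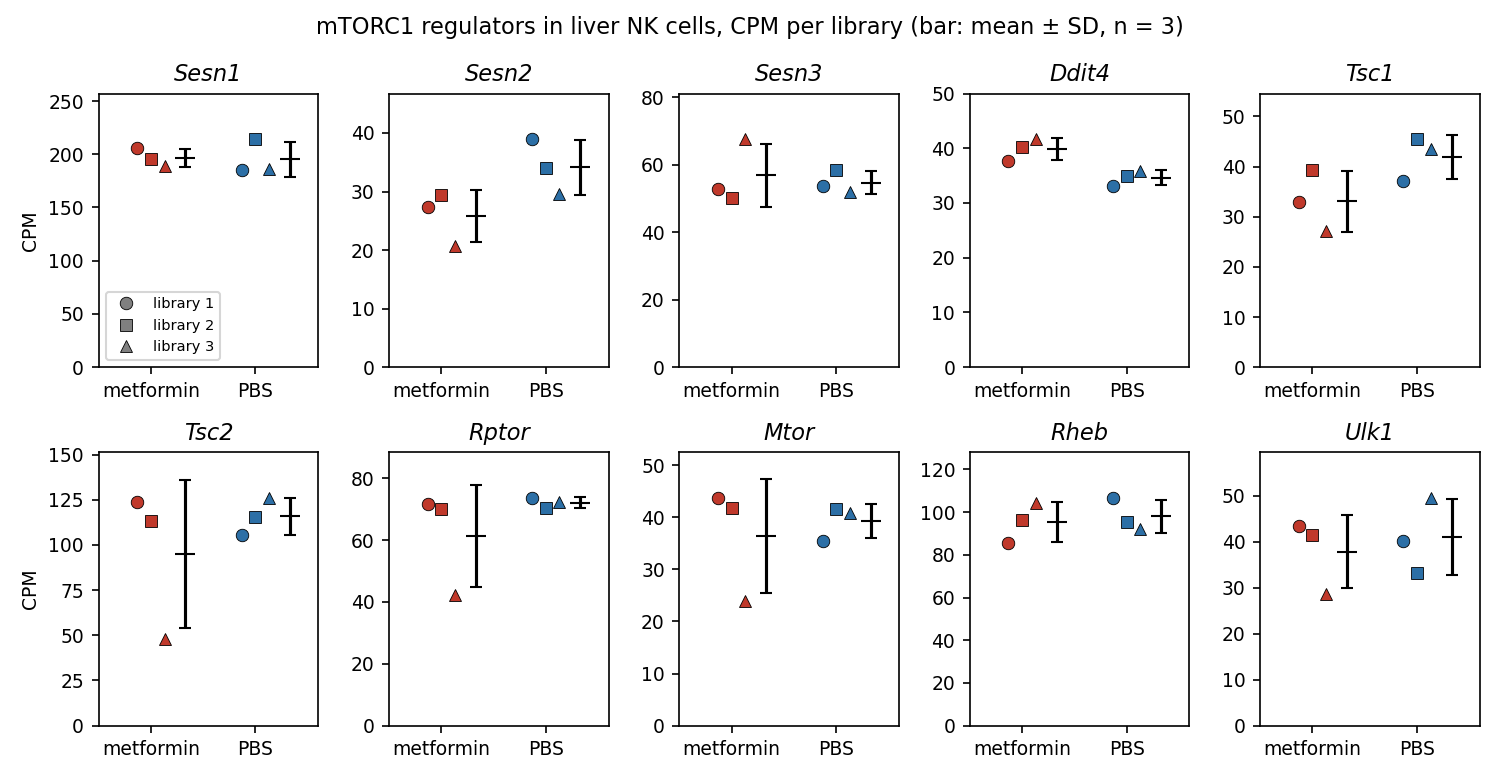
CPM of the sestrins and mTORC1 regulators in each library, 1 panel per gene, with the metformin group left of the PBS group; each symbol is 1 library and each bar the group mean with its SD (n = 3). Only Sesn2 and Ddit4 separate the groups, and metformin library 3 is the lowest of the 6 for 6 genes.

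Per length, the order of the 10 genes ran over a wide range of levels. Sesn1 was the highest, at a mean of 109.97 TPM over the 6 libraries (96.2 to 125), followed by Rheb at 94.7 TPM (84.8 to 104). Sesn1 was above Rheb in 6 of 6 libraries, though their ranges over libraries overlapped. Ddit4, at 35.1 TPM, and Tsc2, at 33.1 TPM, came next and could not be ordered, since Ddit4 was above Tsc2 in 3 of 6 libraries. Sesn3 had 20.8 TPM. Rptor (15.7 TPM), Ulk1 (14.5 TPM), Sesn2 (12.8 TPM) and Tsc1 (11.9 TPM) followed with overlapping ranges, and Mtor was the lowest at 8.88 TPM (6.85 to 10.7). The break between Rheb and Ddit4 was the only step between neighbours whose ranges did not overlap. By this measure Sesn1 lay at percentile 88.5 of the genes tested and Mtor at percentile 41.5.

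Sesn1 made up most of the sestrin mRNA in every library. Its share of the summed sestrin TPM was 77.0%, 76.0% and 80.2% in metformin libraries and 73.1%, 77.3% and 76.5% in PBS libraries. The share of Sesn2 was 7.55%, 8.63% and 6.69% in metformin libraries and 11.8%, 9.29% and 9.25% in PBS libraries. Sesn3 accounted for the rest, 13.1% to 15.5% in metformin libraries and 13.5% to 15.1% in PBS libraries. The share of Sesn2 was thus lower in each metformin library than in any PBS library, while the shares of the other two overlapped. The summed sestrin level itself was 146, 146 and 120 TPM in the metformin group and 143, 162 and 145 TPM in the PBS group.

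Sesn2 encodes the sestrin best known as a leucine sensor and is a target of ATF4 and p53. It had 27.3, 29.3 and 20.8 CPM in the metformin libraries and 39.0, 33.9 and 29.5 CPM in the PBS libraries. Metformin library 2 and PBS library 3 lay within 1 CPM of each other, so the groups were separate but adjoining. The means were 25.8 ± 4.47 CPM with metformin and 34.1 ± 4.73 CPM with PBS (SD, n = 3 each). The log2 fold change was −0.40 (SE 0.17), a ratio of 0.756 with a 95% interval of 0.580 to 0.986, with an unadjusted p of 0.041 and an adjusted p of 0.469 (edgeR's quasi-likelihood test). The direction was the same in TPM, with 11.0, 12.6 and 8.02 TPM in metformin libraries and 16.8, 15.0 and 13.4 TPM in PBS libraries. Leaving out metformin library 3 gave a log2 fold change of −0.27 (unadjusted p = 0.079), and leaving out PBS library 1 gave −0.31 (unadjusted p = 0.135). The unadjusted p was also above 0.05 without metformin library 1 (0.055) or PBS library 2 (0.086). Of the marker sums given above, those of T cells and ILC1 separated the same libraries in the other direction and that of monocytes in the same direction as Sesn2, and their part in its value was not tested.

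Sesn1, a p53 and FOXO target, had nearly equal levels in both groups. It had 206, 196 and 189 CPM with metformin and 185, 214 and 186 CPM with PBS, and all 3 metformin libraries lay within the range of the PBS libraries. The log2 fold change was 0.013 (SE 0.10), and the 95% interval of the ratio ran from 0.863 to 1.18, which bounds the difference that these libraries leave room for. Sesn3, which FOXO factors induce in several tissues, had 52.7, 50.2 and 67.6 CPM with metformin and 53.8, 58.4 and 52.0 CPM with PBS. Metformin library 3 was the highest and metformin library 2 the lowest of the 6, so the groups overlapped. Its log2 fold change was 0.055 (SE 0.13; unadjusted p = 0.690; adjusted p = 0.896, edgeR).

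For Sesn3 the authors' 2 kinds of value gave metformin library 3 opposite places. Its TPM values were 22.7, 22.4 and 15.7 in metformin libraries and 21.6, 21.8 and 20.6 in PBS libraries, so that library was the highest in CPM and the lowest in TPM. The ratio of CPM to TPM was divided by its median over genes in each library, to take out the difference in scale between libraries. So scaled, the ratio of Sesn3 in that library was 1.57 times the geometric mean of the other 5, at percentile 99.7 of the 12159 genes compared. The scaled ratio of Mtor was 0.706 times, at percentile 1.54, and those of Sesn1, Sesn2, Ddit4 and Rheb were between 0.987 and 1.00 times. TPM divides the count by the transcript length that the authors' quantification assigned to the gene in that library, so the value of Sesn3 there depends on which unit is read. Without that library the log2 fold change of Sesn3 was −0.095.

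Within a library, the ratio of 2 sestrins does not depend on the scaling between libraries. The ratio of Sesn1 to Sesn2 in TPM was 10.2, 8.80 and 12.0 with metformin and 6.22, 8.31 and 8.27 with PBS. The ratio of Sesn3 to Sesn2 was 2.05, 1.78 and 1.96 with metformin and 1.29, 1.45 and 1.53 with PBS. Both ratios were higher in every metformin library than in any PBS library, by 0.44 on the log2 scale for each (two-sided exact permutation p = 0.1, the smallest possible; 0.25 adjusted over the 5 ratios computed). Both contain Sesn2, so they are not separate observations. In CPM the ratio of Sesn3 to Sesn2 overlapped between the groups (exact p = 0.3). The ratio of Sesn3 to Sesn1 was 0.201, 0.203 and 0.164 with metformin and 0.207, 0.174 and 0.185 with PBS, and the groups overlapped (exact p = 1).

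**Figure D2:**
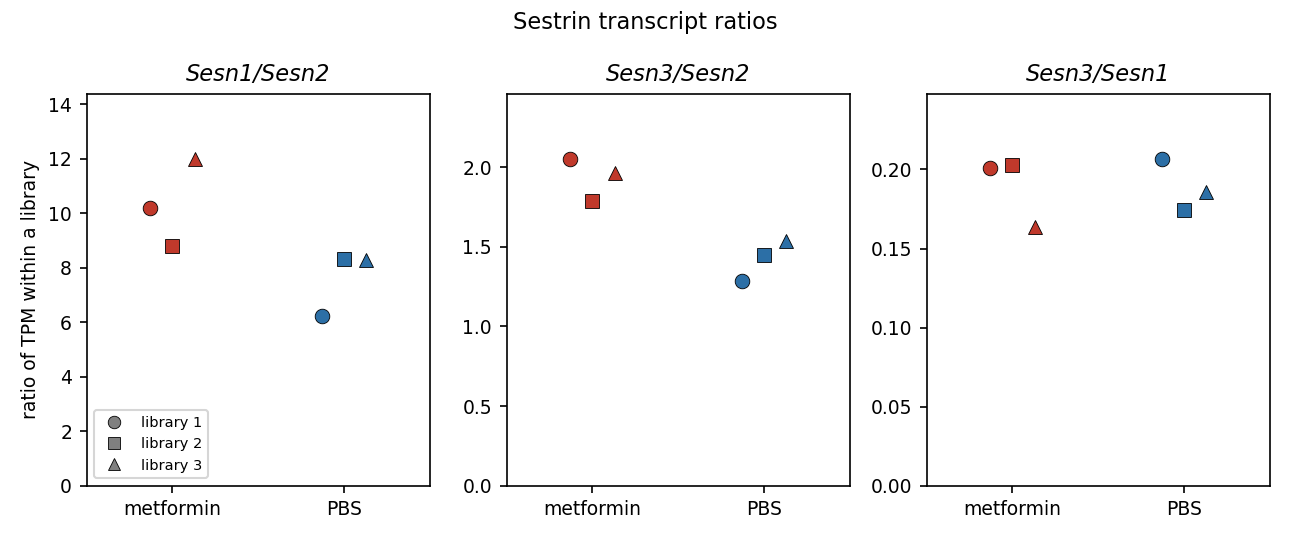
Ratios of TPM within a library, on a linear axis, for the 3 pairs of sestrins (1 panel each), with the metformin libraries left of the PBS libraries; each symbol is 1 library. Of the 3, the ratios over Sesn2 separate the groups, and Sesn3 over Sesn1 does not.

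Ddit4, the gene of the stress-induced inhibitor REDD1, was the only one of the 10 whose metformin libraries were all above the PBS libraries. It had 37.7, 40.3 and 41.7 CPM with metformin and 33.1, 35.0 and 35.8 CPM with PBS. The means were 39.9 ± 2.02 CPM with metformin and 34.6 ± 1.36 CPM with PBS (SD, n = 3 each), and the log2 fold change was 0.20 (SE 0.10), a ratio of 1.15 with a 95% interval of 0.980 to 1.35. It did not pass the test (unadjusted p = 0.078; adjusted p = 0.518, edgeR). In TPM the groups overlapped, at 33.5, 38.2 and 35.7 with metformin and 31.8, 34.9 and 36.3 with PBS. With the trend of expression on gene length removed from each library the log2 fold change was 0.11, and on the log2(TPM + 1) scale it was 0.059. On that last scale the median of all genes was −0.085, against 0.0053 on counts.

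The 2 genes of the TSC complex had lower means in metformin-treated cells, without a called difference. Tsc1, which stabilises TSC2, had 32.9, 39.3 and 27.1 CPM with metformin and 37.1, 45.5 and 43.4 CPM with PBS. Metformin library 2 lay above the lowest PBS library, so the groups overlapped. The log2 fold change of Tsc1 was −0.34 (SE 0.16; unadjusted p = 0.058; adjusted p = 0.489, edgeR), and −0.23 without metformin library 3. Tsc2, the subunit that acts on RHEB, had 124, 113 and 48.1 CPM with metformin and 106, 116 and 126 CPM with PBS. Its log2 fold change was −0.28 (SE 0.30; unadjusted p = 0.375) and turned on 1 library: without metformin library 3 it was 0.027. The ratio of Tsc1 to Tsc2 in TPM was 0.251, 0.387 and 0.596 with metformin and 0.363, 0.362 and 0.336 with PBS, so the metformin libraries lay on both sides of all PBS libraries (exact p = 0.7). Tsc2 was the only one of the 10 with estimated counts that were not whole numbers. It overlaps Pkd1 on the other strand by 693 bases, and reads of the 2 genes can be told apart there only if counting used strand, and the sources used here do not say whether it did.

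The 2 core mTORC1 subunits were low in the same library. Rptor had 71.5, 70.1 and 42.3 CPM with metformin and 73.7, 70.5 and 72.2 CPM with PBS, and Mtor had 43.8, 41.8 and 23.8 CPM with metformin and 35.5, 41.6 and 40.7 CPM with PBS. In both, the first 2 metformin libraries lay at or near the PBS range and metformin library 3 lay far below it. The log2 fold change was −0.23 for Rptor (SE 0.19; unadjusted p = 0.248) and −0.11 for Mtor (SE 0.22; unadjusted p = 0.635), and without metformin library 3 it was −0.034 for Rptor and 0.12 for Mtor. The ratio of Rptor to Mtor in TPM was 1.85, 1.82 and 1.42 with metformin and 2.36, 1.59 and 1.64 with PBS, with overlapping groups (exact p = 0.7). In TPM, all 3 metformin libraries were below the PBS libraries for Rptor, at 15.8, 16.5 and 9.70 with metformin and 17.7, 17.0 and 17.5 with PBS. The same was so for 15.2% of all genes tested, and 4.82% were higher without overlap in TPM.

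Rheb, the GTPase that the TSC complex inactivates, was not low in that library. It had 85.7, 96.3 and 104 CPM with metformin and 107, 95.2 and 92.3 CPM with PBS, with a log2 fold change of −0.039 (SE 0.11; 95% interval of the ratio 0.815 to 1.16; unadjusted p = 0.731). In TPM its groups did not overlap, with 84.8, 90.6 and 94.1 in metformin libraries and 104, 100.1 and 95.2 in PBS libraries. Of all genes tested, 15.2% were lower without overlap in TPM and 4.82% were higher, so TPM values were more often lower than higher in the metformin libraries. Ulk1 had 43.3, 41.5 and 28.7 CPM with metformin and 40.1, 33.2 and 49.6 CPM with PBS. Its PBS libraries were themselves spread over more than the difference between the means, and its log2 fold change was −0.12 (SE 0.20; 95% interval of the ratio 0.674 to 1.26; unadjusted p = 0.574).

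**Figure D3:**
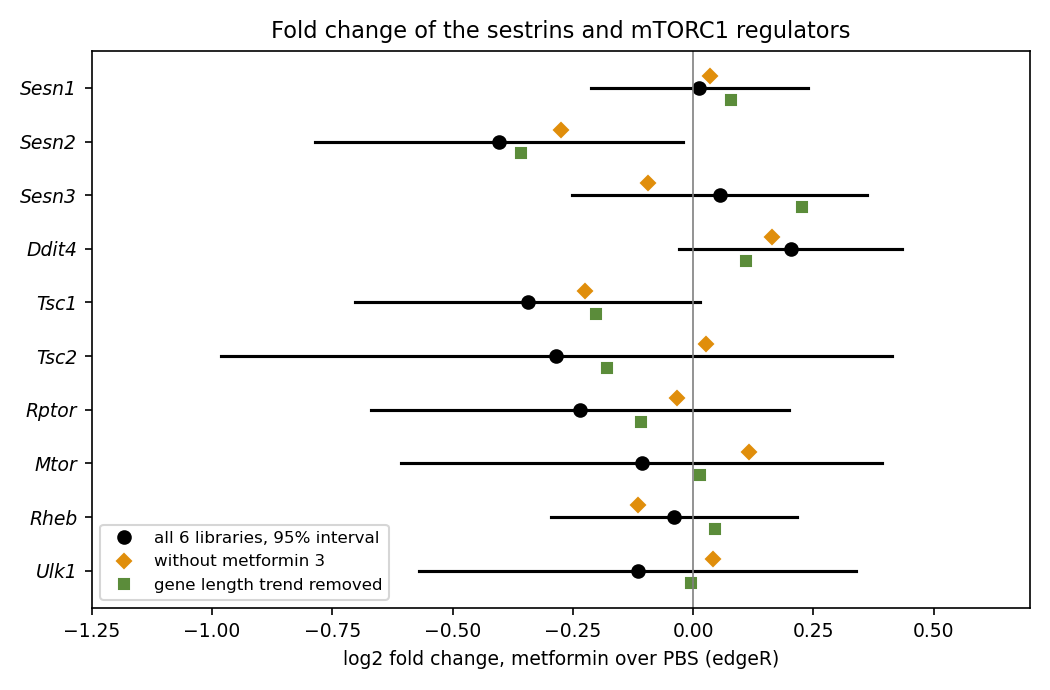
Log2 fold change of metformin over PBS for each of the 10 genes with all libraries, with its 95% interval, beside the value without metformin library 3 and the value with the gene length trend removed. The intervals of all genes but Sesn2 include 0, and the values of Tsc2, Mtor and Ulk1 cross to above 0 without metformin library 3.

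Metformin library 3 was the lowest of the 6 in CPM for 6 of the 10 genes, Sesn2, Tsc1, Tsc2, Rptor, Mtor and Ulk1, and the highest for Sesn3 and Ddit4. It was the lowest for 29.2% of all genes tested, and for 65.3% of the 1160 genes of at least 6000 bases with a mean of 10 to 200 CPM, limits chosen after the values were seen. Long genes were low in this library as a class. Relative to the mean of the 6 libraries, the median log2 CPM of its genes was 0.33 in the shortest decile by gene length and −0.28 in the longest, whereas the 3 PBS medians in the longest were 0.066, 0.083 and 0.12. Tsc2, of 6266 bases, lay 0.79 below the median of its length class in that library, and Mtor and Rptor lay 0.36 and 0.35 below theirs. Tsc1 and Ulk1 lay 0.17 and 0.16 below, near their class. Sesn2, of 3475 bases, lay 0.45 below its class, and Sesn3, the longest of the 10 at 9125 bases, lay 0.56 above. With the length trend removed from every library, the log2 fold change was −0.36 for Sesn2, −0.20 for Tsc1, −0.18 for Tsc2, −0.11 for Rptor and 0.015 for Mtor.

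**Figure D4:**
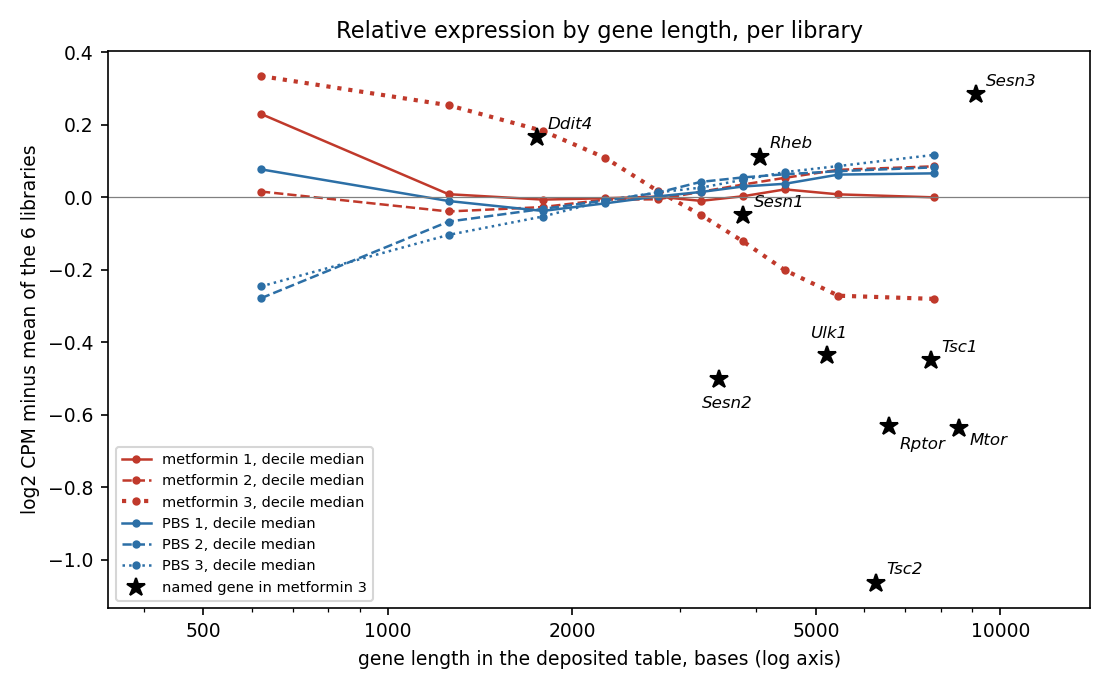
Median log2 CPM relative to the mean of the 6 libraries, for deciles of the genes tested by gene length, with 1 line per library (metformin red, PBS blue); stars show the 10 regulators in metformin library 3 at their own lengths. The line of that library falls from 0.33 to −0.28, and Tsc2 lies farthest below it.

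The genes around these regulators were read from the same fit. The lists held 163 symbols besides the 10, of which 162 were in the table and 159 passed the low-count filter. By edgeR 0 were called, and 10 were higher and 18 were lower in metformin-treated cells at an unadjusted p under 0.05, or 17.6% against 10.4% of all genes tested. The lists were drawn up with earlier results of these data known, so this excess is not independent evidence. Their median log2 fold change was −0.0096 and their smallest adjusted p by edgeR was 0.168. The calls depended on the tool: DESeq2 called 10 of the 151 to which it gave an adjusted p, and limma-voom with sample quality weights called 5 of 159. Among the genes named below, DESeq2 called Pik3ip1, Il7r, Sgk1, Inpp4b, Pik3cb, Klf2, S1pr1, Prr5l and Lamtor4 (adjusted p from 8.59e-05 to 0.0454), and quality weights called Pik3ip1, Il7r, Sgk1 and Inpp4b (adjusted p = 0.0476 each).

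The direct partners of the TSC complex and mTORC1 showed no gene under that p. Of the 4 tested genes of the TSC and REDD list, the one besides the 3 already described was Tbc1d7, the further subunit of the TSC complex, at 7.22 ± 1.26 CPM with metformin and 5.26 ± 0.612 CPM with PBS (log2 fold change 0.46, SE 0.23, unadjusted p = 0.087). Among the 7 mTORC1 genes, Akt1s1, whose product PRAS40 inhibits the complex, had 16.3, 14.9 and 16.5 CPM with metformin and 12.2, 14.7 and 15.8 CPM with PBS, with overlapping groups. Among the 7 tested mTORC2 genes, 1 was under that p: Prr5l (PROTOR-2) was at 79.9 ± 13.2 CPM with metformin and 114 ± 3.16 CPM with PBS (log2 fold change −0.51, unadjusted p = 0.0038, adjusted p = 0.299, edgeR). Of the 5 ULK1 complex genes none was under it, and Ulk2 had 84.4, 104 and 57.9 CPM with metformin and 104, 98.2 and 105 CPM with PBS. Like Ulk1, Ulk2 was lowest in metformin library 3, and its log2 fold change was −0.32 with that library and −0.13 without it.

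The amino acid branch, through which the sestrins act, held both directions. Of 14 tested genes of GATOR1, GATOR2, KICSTOR and the amino acid sensors, 1 was higher and 2 were lower at that p, with a median of 0.034. Seh1l, a GATOR2 and nuclear pore subunit, was at 90.2 ± 6.67 CPM with metformin and 107 ± 3.21 CPM with PBS (log2 fold change −0.25, unadjusted p = 0.031). The other two, named after their values were seen, were Bmt2, the S-adenosylmethionine sensor SAMTOR, at −0.26 (−0.15 with the length trend removed) and the KICSTOR gene Kptn at 0.33. Of 13 Rag GTPase, Ragulator and folliculin genes, 2 were higher and 0 lower, with a median of 0.090. Lamtor4, a Ragulator subunit, was at 39.1, 34.7 and 48.8 CPM with metformin and 28.4, 26.1 and 27.9 CPM with PBS (log2 fold change 0.57, unadjusted p = 0.0038, adjusted p = 0.299, edgeR). With the length trend removed its value was 0.36, and that of Lamtor2, the other Ragulator subunit and likewise named after its value was seen, was 0.092 against 0.42 with the trend left in.

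The lists of upstream kinases had medians below 0. Metformin library 3 was the lowest of the 6 libraries in CPM for 4 of the 9 tested AMPK and LKB1 complex genes. It was the lowest for 8 of the 12 AKT, PDK1 and PI3K genes, against 29.2% of all genes tested. Of 9 tested AMPK and LKB1 complex genes, 0 were higher and 2 were lower, with a median of −0.14. Prkab2, the β2 subunit of AMPK, was at 6.26, 11.2 and 7.98 CPM with metformin and 14.1, 13.1 and 13.5 CPM with PBS (log2 fold change −0.68, SE 0.23, unadjusted p = 0.020). Cab39, a partner of LKB1 named after its value was seen, was at −0.30, and at −0.19 without metformin library 3. Of 12 AKT, PDK1 and PI3K genes, 2 were higher and 3 were lower, with a median of −0.18. The gene with the smallest p was Pik3ip1, an inhibitor of PI3K, at 67.1, 65.2 and 71.8 CPM with metformin and 42.3, 44.3 and 44.1 CPM with PBS, and its log2 fold change was 0.64 (SE 0.093; adjusted p = 0.168, edgeR). Named after their values were seen, the phosphatase gene Inpp4b was at 0.58, and Pik3cb, Akt1 and Pdpk1 were at −0.80, −0.27 and −0.23. Akt1 was at −0.18 without metformin library 3 and Pdpk1 at −0.078 with the length trend removed.

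Downstream of mTORC1, 1 of 12 substrate genes was higher and 1 was lower. Rps6kb2, the gene of S6 kinase 2, was at 95.7 ± 6.72 CPM with metformin and 74.6 ± 2.16 CPM with PBS, with separate groups (log2 fold change 0.36, unadjusted p = 0.0053, adjusted p = 0.310, edgeR), and at a log2 fold change of 0.13 on the log2(TPM + 1) scale (unadjusted p = 0.434). The median of all genes on that scale was −0.085. Lpin1, whose product mTORC1 keeps out of the nucleus, was at −0.48, and at −0.27 without metformin library 3; it was named after its value was seen. Of 24 autophagy genes, 1 was higher and 0 lower, with a median of −0.024. That gene, Atg14, a subunit of the autophagy PI3-kinase complex, was at 29.4 ± 2.32 CPM with metformin and 23.3 ± 3.46 CPM with PBS, with overlapping groups.

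Genes of 5 pathways known to induce sestrins or Ddit4 had list medians between −0.092 and 0.13. Of 11 tested p53 targets, 0 were higher and 0 lower at that p, with a median of −0.092, and Plk2 had the smallest p (4.16 ± 1.38 CPM with metformin and 6.13 ± 0.684 CPM with PBS; log2 fold change −0.56, and −0.34 without metformin library 1; unadjusted p = 0.098). Of 14 ATF4 and amino acid response genes, 1 was higher and 1 lower, with a median of 0.068. Ddit3, the gene of CHOP, was at 34.4, 34.7 and 42.7 CPM with metformin and 24.7, 29.4 and 26.9 CPM with PBS, and its log2 fold change was 0.46 (SE 0.13; unadjusted p = 0.0079), and 0.24 with the length trend removed; the symbol occurs in 2 rows, of which the one with more counts was used. The lower one was Vldlr, a lipoprotein receptor gene named after its value was seen, at 0.316 ± 0.047 CPM with metformin and 1.92 ± 1.93 CPM with PBS, where PBS library 1 alone had 4.12 CPM. Of the 14, 8 were above 0 and 6 below, and Sesn2, also an ATF4 target, was below 0. Of 13 FOXO factors and targets, 1 was higher and 4 were lower, with a median of −0.051. The higher one was Il7r, the interleukin-7 receptor, at 79.4, 69.3 and 84.0 CPM with metformin and 46.6, 42.9 and 49.7 CPM with PBS (log2 fold change 0.74, SE 0.11, adjusted p = 0.168, edgeR). Il7r is also an ILC1 marker and is expressed by T cells, whose marker sums were higher in the metformin libraries; their part in its value was not tested. The lower ones included, named after their values were seen, the trafficking genes Klf2 (−0.35) and S1pr1 (−0.64) and the cell cycle gene Ccng2 (−0.25, and −0.14 with the length trend removed). The part of the marker sums in the values of these lower genes was not tested either.

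Of 9 glucocorticoid receptor and target genes, 1 was higher and 1 was lower, with a median of 0.13. Sgk1, a kinase gene that glucocorticoids induce, was at 63.0, 59.8 and 57.1 CPM with metformin and 91.7, 89.0 and 104 CPM with PBS, and its log2 fold change was −0.66 (SE 0.10; adjusted p = 0.168, edgeR). Fkbp5, another gene they induce, was at 0.61 and was named after its value was seen, so the 2 strongest genes of this list had opposite signs. Of 12 hypoxia genes, the factor gene Hif1a and targets, 0 were higher and 3 were lower, with a median of −0.0059. Ndrg1 was at 22.1, 25.3 and 27.0 CPM with metformin and 36.6, 30.8 and 33.9 CPM with PBS (log2 fold change −0.44, unadjusted p = 0.0082), and Hif1a and Ero1a, named after their values were seen, were at −0.41 and −0.34 (−0.21 for Ero1a without metformin library 3).

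**Figure D5:**
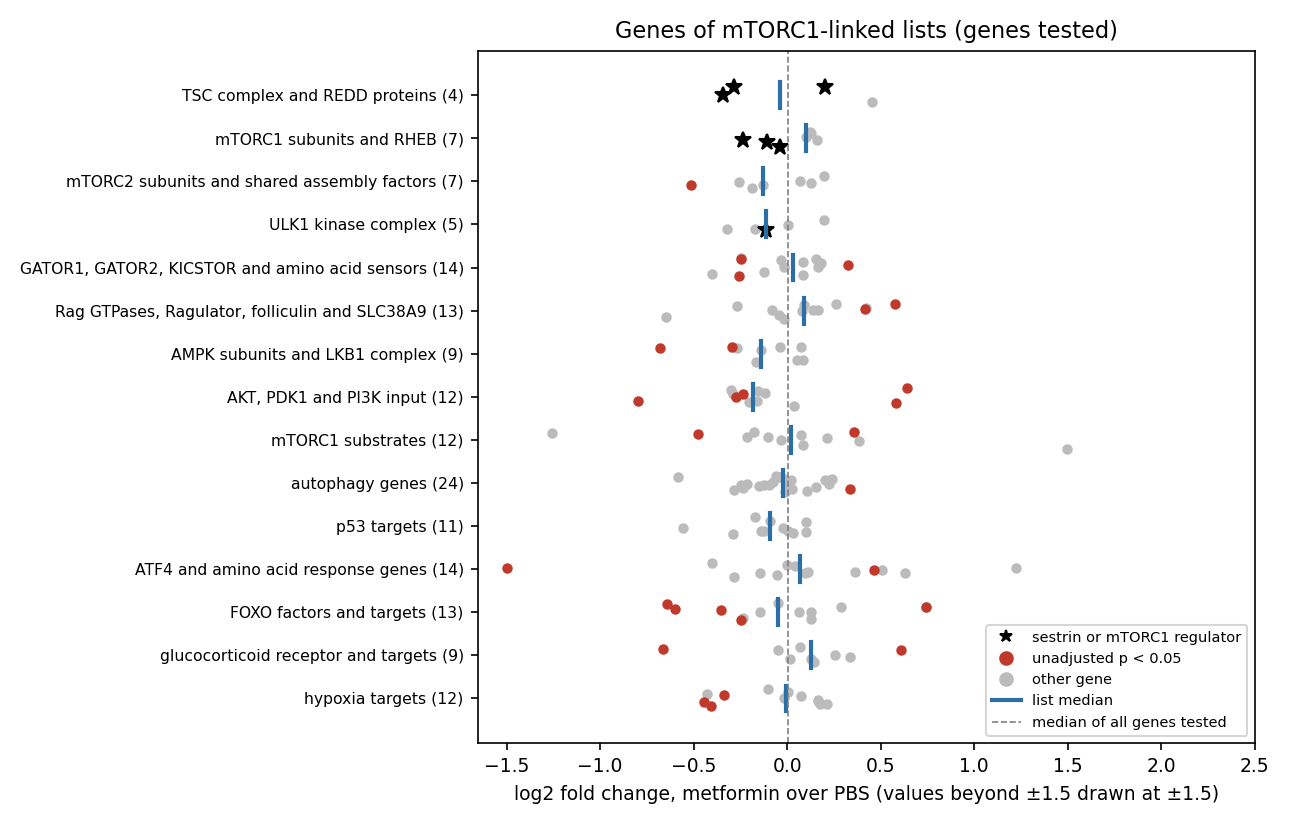
Log2 fold change of metformin over PBS for the genes tested in each list, with the number tested in brackets; black stars are the regulators described first, red points the other genes at an unadjusted p under 0.05, grey points the rest, and blue bars the list medians. The list medians lie between −0.18 and 0.13.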

How the data were processed

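RNA was sequenced from liver NK cells in 6 libraries made with SMART-seq mRNA chemistry, per the labels' protocols. Per the submitters' processing notes, DRAGEN (version not stated), GRCm39 and mm10 are listed without saying for what. The authors deposited estimated counts per gene, which are not normalized, and TPM values, which keep no depth; the sources used here do not state strand or read-sharing settings. Every value column was matched to a library.

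After rounding to whole numbers, the estimated counts were tested with edgeR 4.0.16 (R 4.3.3) by its quasi-likelihood test, with TMM scaling, filterByExpr (15527 genes kept) and Benjamini-Hochberg adjustment over all genes tested, at a threshold of 0.05. CPM uses the scaled library sizes of that fit. SE is the coefficient over the root of F. The common biological coefficient of variation was 27.3%, and single-gene depth limits precision as its interval shows. DESeq2 1.42.0, limma 3.58.1 (voom, and log2(TPM + 1) and log2(TPM + 0.1)), other scalings and filters, a replicate block, trend removal on gene length (lowess span 0.3) and leaving out each library were alternatives. Ratios were tested by exact permutation over libraries. The scripts were tested on simulated data. Promoters were those of RefSeq GRCm38.p6; the deposited table's coordinates are not of that build and none is printed. The genes named were the 10 regulators and, in each list, the tested gene with the smallest p; others were named after their values were seen. The 10 regulators and all lists were chosen with earlier results of these data known. The values of 1 gene of these lists are not reported here.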

Additional observations from a re-analysis of the deposited data

How the results depend on the processing

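None of the 10 regulators was called under any alternative. Over all genes, 0 were called by edgeR (1610 at an unadjusted p under 0.05), 272 by DESeq2 (1902 unadjusted), 0 by limma-voom (1679 unadjusted), 36 by limma-voom with sample quality weights (2061 unadjusted), 1 with no filter, 1 with the gene length trend removed, 3 with a replicate block, 2 with length and GC trends removed, 17 without metformin library 3 and with the length trend removed, and 0 to 1 on leaving out 1 library. The GC trend and the last combination were chosen after seeing the data; the causes were not tested. The count of regulators at an unadjusted p under 0.05 was 1, and 0 with quality weights, 2 with no filter, 0 without metformin library 3 and with the length trend removed, and 0 to 2 on leaving out 1 library.

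Sesn2 stayed below 0 in all 22 alternatives (−0.53 to −0.25), at an unadjusted p under 0.05 in 16, Tsc1 stayed below 0 (−0.49 to −0.17), under that p in 3, and Ddit4 above 0 (0.059 to 0.25), under it in 0. The other 7 changed sign in at least 1 alternative. Sesn1 was at −0.0014 with DESeq2, −0.0030 with no filter, −0.090 and −0.091 on log2(TPM + 1) and log2(TPM + 0.1), and −0.036 to 0.084 on leaving out 1 library. Sesn3 was at −0.061 with quality weights, −0.086 and −0.091 on the TPM scales, −0.043 without metformin library 3 and with the length trend removed, and −0.095 to 0.13 on leaving out 1 library. On leaving out 1 library, Tsc2 ran from −0.53 to 0.027, Mtor from −0.27 to 0.12, Rheb from −0.11 to 0.026 and Ulk1 from −0.25 to 0.041. Without metformin library 3 and with the length trend removed, Tsc2 was at 0.077, Rptor at 0.015, Mtor at 0.17 and Ulk1 at 0.080. With quality weights Mtor was at 0.051 and Ulk1 at 0.047. With the length trend removed Mtor was at 0.015 and Rheb at 0.046; with length and GC trends removed, at 0.0073 and 0.065. Rheb was at 0.011 with upper quartile scaling. With the block and the length trend removed, Rheb was at 0.038 and Ulk1 at 0.010. Akt1s1 was at −0.21 and −0.22 on the TPM scales, where the median of all genes was −0.085 and −0.10 against 0.0053 on counts.

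The log2 ratio of Sesn3 to Sesn1 differed by 0.029 in CPM and by −0.057 to 0.10 on leaving out 1 library, that of Tsc1 to Tsc2 by −0.18 to 0.44 and that of Rptor to Mtor by −0.22 to 0.061. Whether replicate numbers pair the libraries was not settled. Deviations of same-numbered libraries correlated at 0.171, 0.0757 and 0.172, and those of other pairs at −0.243 to 0.0763. For each metformin library the same-numbered PBS library had the highest correlation. PBS library 2, however, correlated slightly better with metformin library 1 (0.0763) than with metformin library 2. With the replicate block, 3 genes and 0 regulators were called, and Sesn2 was at −0.41 (unadjusted p = 0.022). The 95% interval of the ratio was widest for Tsc2, at 0.506 to 1.33, and ran from 0.863 to 1.18 for Sesn1, so the size of difference that 3 libraries per group could show varied by gene. Of the pathway genes outside the 10, 0 were called by edgeR, 10 by DESeq2, 5 with quality weights, 1 (Inpp4b) with length and GC trends removed, 2 without metformin library 3 and with the length trend removed, and 0 in every other alternative.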
